A study of Mus musculus with 18 samples.

Results

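The mammary glands of wild-type (WT) mice at the endpoint of a carcinogen experiment were compared with those of untreated WT mice, gene by gene. The comparison set 3 endpoint against 3 untreated libraries of the 18 in the series, chosen by their labels. It covered 15482 of 23337 gene symbols, those that passed a filter on low counts. The spread behind each main p-value and SE was estimated from all 18 libraries together. RNA was sequenced from mammary tissue of C57BL/6Jx129 mice with the lymph nodes left out. The treated mice were given 1 mg of DMBA (7,12-dimethylbenz[a]anthracene) in oil by gavage in each of 6 weekly doses, beginning at 12 to 14 weeks of age, and the untreated mice had no treatment. Endpoint glands held no tumour and were taken when the mouse was killed for a DMBA-induced tumour in some tissue. The other 12 libraries came from WT glands 2 weeks after the last dose and from Cip2a-/- mice, which lack the PP2A inhibitor Cip2a, untreated, at 2 weeks and at the endpoint. No oil-only group and no age at the endpoint are among the labels used here, so the effects of DMBA, oil gavage, age and a tumour elsewhere cannot be told apart. The labels do not say that the replicates are separate mice, so p-values measure the spread between these libraries, which may be in part technical.

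DMBA is a polycyclic aromatic hydrocarbon that cytochrome P450 enzymes turn into metabolites that bind DNA. The mammary gland is a tree of epithelial ducts set in a fat pad. Fibroblasts of its stroma make the collagens and adaptor proteins that hold ducts, fat and vessels together, and this matrix is remodelled with age, pregnancy and tumour growth.

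Total counts ran from 17272157 to 24586404 in the untreated and from 17598320 to 22981594 in the endpoint libraries. Levels are given in CPM, read counts scaled to library size with TMM factors. The endpoint glands differed more among themselves: the median over genes of the standard deviation of log2 CPM was 0.491 at the endpoint and 0.223 in untreated glands, and 13090 genes (84.5%) were more variable at the endpoint. Marker lists showed which tissues varied. A list score is the mean over its genes of log2 CPM, centred on the 6 glands. Endpoint gland 1 had the highest scores of the 6 glands for brown adipocytes (4.22), skeletal muscle (4.71), B cells (4.60), T cells (3.47) and lymph node stroma (3.23), and the lowest for epithelium (-3.85). Ucp1, the uncoupling protein of brown fat, stood at 5835 CPM there and at 0.929 and 0.190 CPM in endpoint glands 2 and 3, against 14.6 to 130.5 CPM in untreated glands. Epcam, an adhesion gene of epithelium, stood at 4.37, 362 and 92.0 CPM in the endpoint glands and at 75.0, 138 and 182 CPM in the untreated ones. Although lymph nodes are described as left out, summed B cell markers reached 2782 CPM in endpoint gland 1 and 741 CPM in untreated gland 1. The other glands had 8.44 to 473 CPM. Whether node tissue was present was not tested. The summed level of the 18 epithelial markers was 45.6 CPM in endpoint gland 1, against 732 to 3908 CPM in the other 5 glands, so the defining epithelium of the labelled tissue was scarce in that library. The endpoint median of each list described is therefore also given without it.

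**Figure D1:**
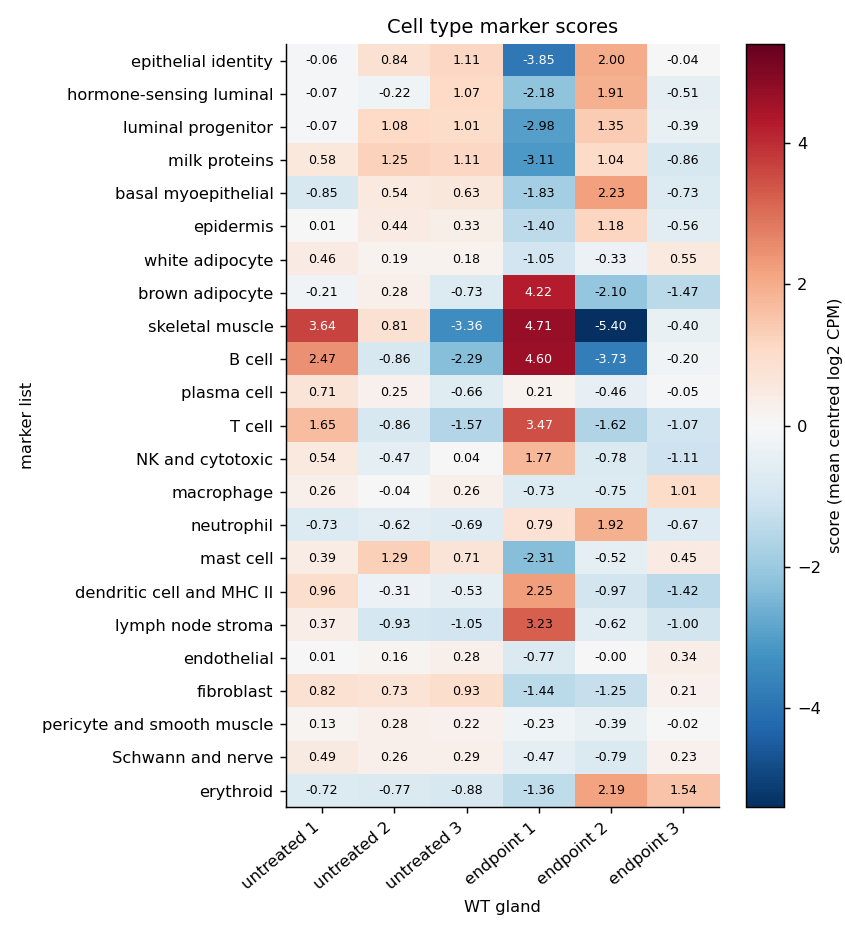
Scores of the cell type marker lists in the 6 WT glands, with lists in rows, glands in columns and the score (mean centred log2 CPM) in each cell. Endpoint gland 1 is high for brown adipocyte, muscle and lymphocyte lists and low for epithelial lists, and fibroblast scores of all 3 endpoint glands lie below those of all 3 untreated glands.

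Across the genome, 5 genes fell and 0 rose by the edgeR quasi-likelihood test at an adjusted p under 0.05. The 5 genes are 0.0323% of those tested. They encode 2 matrix proteins (Abi3bp and Matn2), an anticoagulant receptor of vessel walls (Thbd), a proton pump subunit (Atp6v0e2) and a long noncoding RNA (Gm6936). Without adjustment, 1018 higher and 847 lower genes had a p under 0.05. DESeq2 called 306 genes, 108 higher (0.669%) and 198 lower (1.23%), among them all 5 that edgeR called, and limma voom called 4, with 0 higher. The edgeR count depended on single libraries: it was 0 without endpoint gland 1, 46 without endpoint gland 2, 8 without endpoint gland 3, and 3, 1 and 2 without untreated glands 1, 2 and 3. Of the 5, only Abi3bp and Gm6936 stayed called without untreated gland 1 or 3, and only Gm6936 without untreated gland 2. All 5 stayed called without endpoint gland 2, and all but Matn2 without endpoint gland 3. All 5 genes kept a negative log2 fold change in each of these 6 edgeR fits. Their groups did not overlap, so leaving out a library could hardly have changed that sign. The DESeq2 count was 69 without untreated gland 2, 52 without untreated gland 3, 1160 without endpoint gland 2 and 479 without endpoint gland 3. A fit to the 6 libraries alone called 0 genes (lowest edgeR adjusted p = 0.417), and a fit to the 9 WT libraries called 0 (0.0766).

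Abi3bp encodes an extracellular matrix protein that binds integrins and collagen. Its level was 32.7, 47.2 and 40.3 CPM in the untreated glands and 10.8, 7.93 and 12.4 CPM in the endpoint glands. Every endpoint gland lay below every untreated gland, by a wide gap. The log2 fold change was -1.95 ± 0.24 (SE), with an adjusted p of 0.00721 in edgeR. Matn2 encodes matrilin 2, an adaptor protein of basement membranes. It stood at 77.6, 76.8 and 114 CPM untreated and at 18.6, 23.7 and 23.1 CPM at the endpoint. The 3 endpoint glands were close to one another and far below the untreated ones. Its log2 fold change was -2.04 ± 0.31 (edgeR adjusted p = 0.0378). In glands 2 weeks after the last dose, which were compared with the same untreated libraries, the log2 fold changes were 0.12 ± 0.23 for Abi3bp and -0.29 ± 0.30 for Matn2.

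Thbd encodes thrombomodulin, which binds thrombin on the endothelial surface and turns it towards activating protein C. It had 193, 227 and 191 CPM untreated and 37.7, 65.4 and 77.8 CPM at the endpoint. Endpoint gland 1 was the lowest, and the groups did not overlap. The log2 fold change was -1.76 ± 0.25 (edgeR adjusted p = 0.0225). Over the 16 genes of the endothelial list, Thbd included, the median log2 fold change was -0.04, against 0.08 over all genes tested. For 3 of the 16 (18.8%), against 7.8% of all genes, all 3 endpoint values lay below all 3 untreated values. The median ran from -0.46 without endpoint gland 3, with 6 genes lower without overlap against 14.7% of all genes, to 0.21 without endpoint gland 1. Pecam1, an endothelial adhesion gene, had a log2 fold change of 0.21 ± 0.34 and Cdh5, the vascular cadherin gene, of -0.25 ± 0.38, and neither passed the test (edgeR adjusted p = 0.825 and 0.811). Their values changed sign, to -0.18 without endpoint gland 3 for Pecam1 and to 0.0034 without endpoint gland 1 for Cdh5. The list's summed level was 2411 to 2796 CPM in untreated and 1467 to 3193 CPM in endpoint glands.

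Atp6v0e2 encodes an e subunit of the vacuolar proton pump that acidifies lysosomes. It had 61.1, 49.1 and 52.9 CPM untreated and 25.3, 19.6 and 23.3 CPM at the endpoint, again with no overlap. The log2 fold change was -1.26 ± 0.18 (edgeR adjusted p = 0.0225). The 2-week WT glands already stood at 21.6, 27.99 and 24.9 CPM, overlapping the endpoint glands, and untreated Cip2a-/- glands at 25.9, 23.5 and 34.4 CPM. The 3 untreated WT glands were thus the high ones among the groups just given. Cip2a-/- glands at 2 weeks, outside those groups, had 670, 898 and 892 reads, not scaled for depth. Untreated WT glands had 1408, 879 and 955 reads, and WT endpoint glands 400, 507 and 369. Atp6v0e, the paralog that encodes the other e subunit, was looked up after the values were seen and had a log2 fold change of 0.12 ± 0.20 (edgeR adjusted p = 0.845), or -0.044 without endpoint gland 1.

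Gm6936 is a long noncoding RNA gene on chromosome 16, from 49980460 to 49997475 in GRCm38, 960.74 kb from Cip2a. It falls outside the rule for naming genes and was chosen after its values were seen. It had 67, 36 and 64 reads untreated and 1, 3 and 0 reads at the endpoint, or 2.91, 2.01 and 3.54 CPM against 0.0634, 0.116 and 0 CPM. Almost no reads remained in any endpoint gland. Pooled over libraries the untreated level was 40.6 times that at the endpoint, with an exact 95% counting interval from 15.6 to 151, which covers counting error only. The fitted log2 fold change was -5.29 ± 0.65 (edgeR adjusted p = 0.00721). At 2 weeks WT glands still had 40, 38 and 70 reads.

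**Figure D2:**
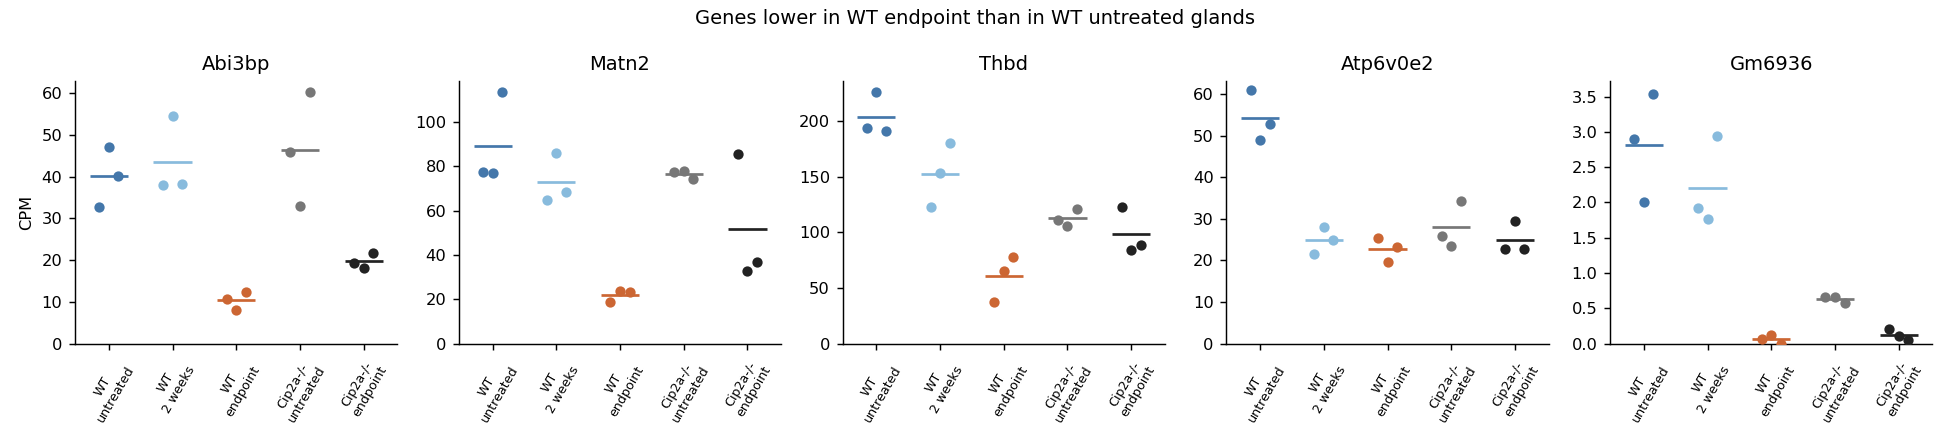
Level in CPM of the 5 genes that passed the edgeR test, in 5 groups of 3 glands, with 1 point per gland and a bar at the group mean. The WT endpoint points lie below all WT untreated points in each panel, and Atp6v0e2 at 2 weeks (21.6 to 27.99 CPM) overlaps the endpoint glands (19.6 to 25.3 CPM).

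Cip2a, listed under its older symbol C330027C09Rik, is the gene that the series deletes in its other mice. It had 1.82, 1.62 and 0.831 CPM in untreated and 3.23, 4.88 and 1.58 CPM in endpoint WT glands, and the groups overlapped. The log2 fold change of 1.18 ± 0.54 did not pass the test (edgeR adjusted p = 0.415).

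The log2 fold change was negative for 15 of 16 collagen genes and for 15 of 15 fibroblast markers, and none of them passed the edgeR test. Non-overlapping groups, where all 3 endpoint values lay below all 3 untreated values, were found for 7.8% of all genes, and for 13 of 16 collagen genes and 8 of 15 fibroblast markers. The median log2 fold change was -1.68 over the collagens and -1.34 over the fibroblast markers, against 0.08 over all genes, and 3 collagen genes belong to both lists. DESeq2 called 6 of the 16 collagen genes lower, against 1.23% of all genes it tested. In whole tissue, fewer cells of a type and less RNA per cell cannot be told apart. Without endpoint gland 1, the medians were -1.33 and -1.03, and 13 collagens and 9 fibroblast markers did not overlap, against 14.5% of all genes. Leaving out a library can hardly make such groups overlap. At an unadjusted edgeR p under 0.05, 13 collagens and 9 fibroblast markers were lower with all glands, of 847 genes in all. As each gland was left out, these counts ran from 9 to 14 and from 3 to 11, of 520 to 1598 genes in all. The fibroblast median was -2.34 without endpoint gland 3. The summed level of the fibroblast list was 19163 to 23161 CPM in untreated and 2218 to 13524 CPM in endpoint glands. Its part in the collagen values was not tested.

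Col1a1, which encodes the main chain of fibrillar type I collagen, had 507, 823 and 879 CPM untreated and 75.3, 74.6 and 502 CPM at the endpoint. Endpoint glands 1 and 2 were far below the untreated glands, and endpoint gland 3 lay just under the lowest of them. Its log2 fold change was -1.76 ± 0.80 (edgeR adjusted p = 0.406). Col3a1, the type III collagen gene, had -1.72 ± 0.78, and Col1a2, the partner chain of type I, had -1.34 ± 0.66 (edgeR adjusted p = 0.404 and 0.432). The widest gaps were in Col15a1 and Col4a4, 2 basement membrane zone collagens picked after their values were seen. Col15a1 had 615, 661 and 909 CPM untreated and 56.1, 52.4 and 104 CPM at the endpoint (log2 fold change -3.36 ± 0.70, edgeR adjusted p = 0.139, DESeq2 adjusted p = 0.000118). Col4a4 had 1.91, 1.79 and 2.10 CPM against 0.444, 0.271 and 0.442 CPM (-2.32 ± 0.40, edgeR adjusted p = 0.066, DESeq2 adjusted p = 0.000392). In both genes all endpoint glands stood well apart from all untreated glands.

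Among the fibroblast markers, Pdgfra, the receptor that marks most fibroblasts, had a log2 fold change of -0.87 ± 0.38 (edgeR adjusted p = 0.394). DESeq2 called 3 of the 15 members lower, against 1.23% of all genes it tested. The 3 were named here after their values were seen: Dpt, Lum and Pi16. They encode dermatopontin, the collagen-binding proteoglycan lumican and a peptidase inhibitor of adventitial fibroblasts. Dpt had 640, 613 and 630 CPM untreated and 49.5, 36.8 and 248 CPM at the endpoint. Endpoint gland 3 was again the nearest to the untreated glands. The log2 fold changes were -2.49 ± 0.64 for Dpt, -2.27 ± 0.62 for Lum and -2.74 ± 0.90 for Pi16, with edgeR adjusted p of 0.2, 0.22 and 0.278.

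The other 8 genes that the rule named on the lower side did not pass the edgeR test. Adamts5, a protease that cleaves aggrecan and versican, had 117, 198 and 229 CPM untreated and 16.9, 33.2 and 45.4 CPM at the endpoint, with no overlap (log2 fold change -2.51 ± 0.44, edgeR adjusted p = 0.066). Sema3c, a secreted semaphorin, had 41.2, 39.0 and 56.3 CPM against 6.46, 16.3 and 11.1 CPM (-2.01 ± 0.33, edgeR adjusted p = 0.0594). Ddr2, a receptor tyrosine kinase that binds fibrillar collagen, had -1.45 ± 0.27 (edgeR adjusted p = 0.111). The list of matrix proteases and their inhibitors as a whole had 5 of 18 genes below without overlap (27.8%, against 7.8% of all genes), or 8 without endpoint gland 2 or 3 (against 18.3% and 14.7%), and a median of -0.49, or -0.18 without endpoint gland 1 and -1.10 without endpoint gland 2. Its first members Mmp2, Mmp3 and Mmp9, which encode matrix metalloproteinases, had log2 fold changes of -1.10 ± 0.60, -1.36 ± 0.60 and -0.68 ± 0.53. None of the 3 passed the edgeR test.

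Of the rest of these 8 genes, Oaf had a log2 fold change of -0.93 ± 0.16, Mpdz, a scaffold protein of tight junctions, -1.61 ± 0.29, Lrrn2 -2.06 ± 0.39, Ndn, an imprinted growth regulator, -1.50 ± 0.29, and Rasgrf2, an exchange factor for Ras, -1.88 ± 0.38. Their edgeR adjusted p ran from 0.066 for Oaf to 0.128 for Rasgrf2.

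Mast cell genes had a median log2 fold change of -1.82 over 10 markers, 7 of them below without overlap (70%, against 7.8% of all genes). The median was -1.33 without endpoint gland 1 and -2.65 without endpoint gland 3. Cpa3, the carboxypeptidase of mast cell granules, had 19.6, 36.9 and 25.5 CPM untreated and 1.14, 3.17 and 18.5 CPM at the endpoint. Endpoint gland 3 almost reached the lowest untreated gland. Its log2 fold change was -1.85 ± 0.86, that of the chymase gene Mcpt4 -1.90 ± 0.81 and that of the tryptase gene Tpsb2 -1.27 ± 0.71. None of the 10 passed the edgeR test, and DESeq2 called 0, against 1.23% of all genes it tested called lower. At 2 weeks the list's median was -1.47 against the same untreated libraries.

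**Figure D3:**
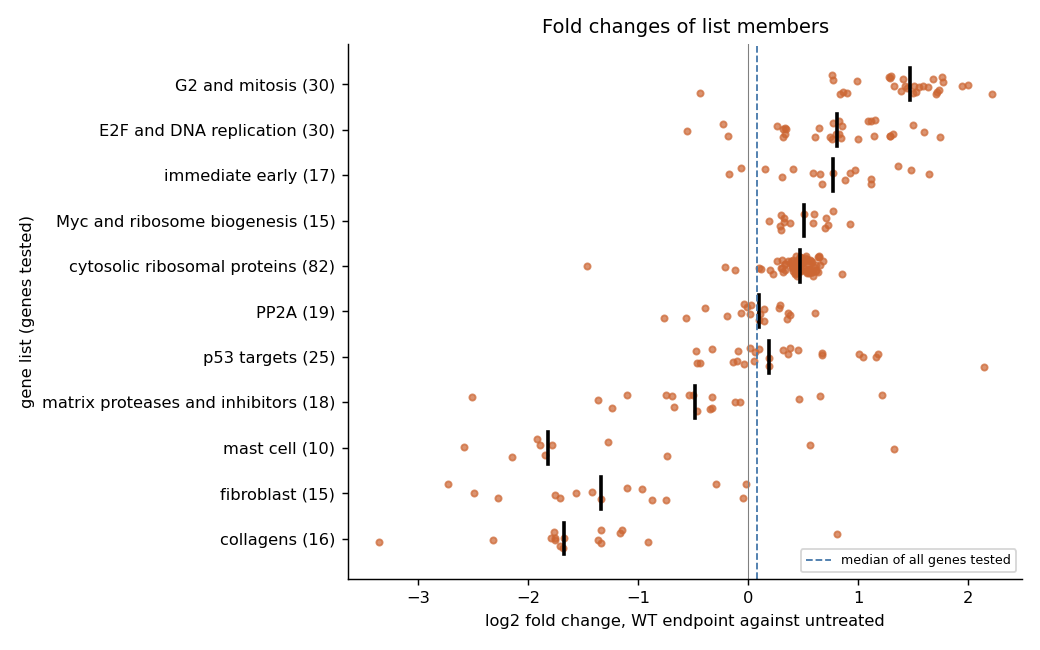
Log2 fold change of WT endpoint against untreated glands for each tested gene of 11 lists, with 1 point per gene and a bar at the list's median. Collagen and fibroblast medians lie at -1.68 and -1.34, G2 and mitosis genes at 1.47, and the median of all genes at 0.08.

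On the higher side, genes of dividing cells stood together, although none passed the edgeR test. All 3 endpoint values lay above all 3 untreated values for 26 of 30 genes of G2 and mitosis and for 18 of 30 genes of DNA replication controlled by E2F factors, against 8.49% of all genes. The median log2 fold changes were 1.47 and 0.81. Without endpoint gland 1 they were 1.35 and 0.72, and 26 and 18 members did not overlap, against 14.2% of all genes. Leaving out a library can hardly make such groups overlap. At an unadjusted edgeR p under 0.05, 13 mitosis and 15 replication genes were higher with all glands, of 1018 genes in all. As each gland was left out, these counts ran from 1 to 14 and from 5 to 17, of 460 to 1531 genes in all. The mitosis count was 1 without untreated gland 2 or 3. DESeq2 called 0 mitosis and 2 replication genes higher, against 0.669% of all genes it tested.

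Mki67, the gene of the proliferation antigen Ki-67, had 22.8, 11.4 and 8.42 CPM untreated and 51.2, 43.6 and 27.9 CPM at the endpoint. Top2a, the topoisomerase that untangles chromosomes, had 15.8, 8.04 and 5.48 CPM against 39.8, 26.7 and 27.6 CPM. Cdk1, the mitotic kinase gene, had 5.12, 8.88 and 5.82 CPM against 11.2, 18.9 and 9.10 CPM. In all 3 genes the groups did not overlap, but for Cdk1 endpoint gland 3 was only just above untreated gland 2. The log2 fold changes were 1.52 ± 0.96, 1.68 ± 0.81 and 0.99 ± 0.55 (edgeR adjusted p = 0.539, 0.426 and 0.484). The replication helicase genes Mcm2, Mcm3 and Mcm4 had 1.14 ± 0.40, 0.85 ± 0.40 and 0.33 ± 0.22 (edgeR adjusted p = 0.3, 0.412 and 0.555).

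The upstream sequences of these first 3 mitosis genes are shown because many genes of that list stood higher together. Each is the 250 bases before the RefSeq start in GRCm38.p6, on the minus strand: chr7:135716380-135716629 for Mki67, chr11:99024190-99024439 for Top2a and chr10:69352913-69353162 for Cdk1. Of the 250 bases shown for Cdk1, 26 lie in exons of the GENCODE M21 annotation, and the bases shown for Mki67 and Top2a overlap none. Matches within those 26 bases were not counted apart. Capitals mark matches, on either strand, to the CCAAT box (CCAAT), the cell cycle homology region (TTTGAA) and the GC box (GGGCGG).
Mki67: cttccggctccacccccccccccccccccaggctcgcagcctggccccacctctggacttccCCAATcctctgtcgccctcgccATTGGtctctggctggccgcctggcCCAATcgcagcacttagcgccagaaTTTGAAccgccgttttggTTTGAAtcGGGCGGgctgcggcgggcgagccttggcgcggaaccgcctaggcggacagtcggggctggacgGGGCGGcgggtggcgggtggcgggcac
Top2a: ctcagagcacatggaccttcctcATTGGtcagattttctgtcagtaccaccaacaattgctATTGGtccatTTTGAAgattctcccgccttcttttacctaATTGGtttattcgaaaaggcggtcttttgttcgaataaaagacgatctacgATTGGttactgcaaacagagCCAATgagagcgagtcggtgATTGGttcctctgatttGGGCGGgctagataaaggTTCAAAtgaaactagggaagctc
Cdk1: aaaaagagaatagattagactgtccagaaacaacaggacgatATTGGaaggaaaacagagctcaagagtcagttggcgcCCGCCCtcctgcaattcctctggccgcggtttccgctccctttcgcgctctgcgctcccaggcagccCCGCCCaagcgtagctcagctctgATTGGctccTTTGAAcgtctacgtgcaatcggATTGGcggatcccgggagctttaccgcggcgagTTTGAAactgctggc
Mki67 and Cdk1 each held 3 CCAAT boxes and Top2a held 6, and each of the 3 held 2 matches to the cell cycle homology region. Of the 26 mitosis genes with an upstream sequence, 21 (80.8%) held CCAAT, against 34.5% of 27025 upstream sequences in all. The cell cycle homology region was in 9 (34.6%) against 16.3%, the GC box in 19 (73.1%) against 32.9%, and the TATA box (TATAAA) in 0 against 13%. Among 25 replication genes CCAAT was in 14 (56%), the cell cycle homology region in 2 (8%), the GC box in 16 (64%) and the TATA box in 1 (4%). Among 11 collagen genes the same motifs were in 4 (36.4%), 2 (18.2%), 5 (45.5%) and 1 (9.09%). These matches describe letters in the sequences only.

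Genes of ribosome production were also higher in most members. Of 82 cytosolic ribosomal protein genes, 62 (75.6%, against 8.49% of all genes) had endpoint values above all untreated ones, with a median log2 fold change of 0.47, or 0.42 without endpoint gland 1. These genes are short, and the fold change fell with transcript length by 0.096 per doubling over all genes with a length. After this trend was removed, a step chosen after the data were seen, the list's median was 0.22, whereas those of the mitosis genes and collagens were 1.38 and -1.65. Rpl10, Rpl10a and Rpl11 had 0.39 ± 0.22, 0.45 ± 0.25 and 0.47 ± 0.21, and none passed the edgeR test. Reads of these genes are uncertain, because near-identical pseudogenes can share them. Of 15 Myc and ribosome biogenesis genes 8 (53.3%) did not overlap on the higher side, with a median of 0.51, or 0.36 without endpoint gland 1. The nucleolar protein gene Nop56 had 59.7, 48.2 and 44.4 CPM untreated and 88.4, 95.4 and 76.3 CPM at the endpoint (log2 fold change 0.77 ± 0.22, edgeR adjusted p = 0.228). Its partner Nop58 had 0.72 ± 0.29 and Myc itself 0.92 ± 0.53, with overlapping groups for Myc.

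The rule for named genes required groups without overlap, and none of the 12 genes it named on the higher side passed the edgeR test. C1qbp, a mitochondrial matrix protein gene, had 71.2, 57.7 and 65.9 CPM untreated and 122, 86.1 and 117 CPM at the endpoint (log2 fold change 0.74 ± 0.14, edgeR adjusted p = 0.124). Gadd45g, a stress-induced growth arrest gene, had 27.02, 32.7 and 27.2 CPM against 76.4, 111 and 82.3 CPM (1.64 ± 0.34, edgeR adjusted p = 0.139). Cdc25a, a phosphatase that activates cyclin-dependent kinases, had 10.9, 8.88 and 9.64 CPM against 18.6, 19.9 and 20.4 CPM (1.00 ± 0.21). In Cdc25a and in Dusp6, a phosphatase of the kinase ERK (0.72 ± 0.16), the endpoint glands were close to each other. Rgs2, a regulator of G protein signalling, had 25.4, 15.4 and 27.8 CPM against 70.1, 206 and 146 CPM (2.62 ± 0.61), and Arc, an immediate early gene of neurons, had 1.97 ± 0.46. The apolipoprotein gene Apoc1 had 1.64 ± 0.33, Traf4 1.22 ± 0.28, Sephs2, of selenocysteine synthesis, 1.12 ± 0.27, Pigo 0.62 ± 0.15, the deubiquitinase gene Uchl5 0.59 ± 0.14 and Dus1l 0.51 ± 0.12. The edgeR adjusted p of all 12 ran from 0.124 to 0.199.

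Of 17 immediate early genes 7 (41.2%, against 8.49% of all genes) did not overlap on the higher side. Their median log2 fold change was 0.77, with and without endpoint gland 1. Of 12 glucocorticoid and metallothionein genes 4 (33.3%) did not overlap on the higher side and 1 (8.33%) on the lower side, with a median of 0.85, or 0.93 without endpoint gland 1. The 4 became 7 without endpoint gland 1 or untreated gland 1, against 14.2% and 15% of all genes. Fos, a transcription factor gene induced within minutes, had 22.3, 22.4 and 15.7 CPM untreated and 11.3, 45.1 and 132 CPM at the endpoint, so that endpoint gland 1 lay below every untreated gland (1.64 ± 0.61). Jun, its partner, had 0.41 ± 0.43, and Fosb 0.31 ± 0.94, which turned to -1.26 without endpoint gland 3 and to -0.061 without untreated gland 3. Fkbp5, a chaperone gene induced by glucocorticoids, had 33.8, 33.7 and 34.8 CPM against 37.6, 306 and 232 CPM. Endpoint gland 1 was barely above the untreated glands. Its log2 fold change was 2.49 ± 0.69 (edgeR adjusted p = 0.221), that of the metallothionein gene Mt1 1.40 ± 0.55 and that of Tsc22d3, another glucocorticoid target, 0.18 ± 0.49, or -0.0039 without untreated gland 3.

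Targets of p53, the transcription factor that answers DNA damage, had a median log2 fold change of 0.18 over 25 genes, 2 higher (8%) and 1 lower (4%) without overlap, close to or below the 8.49% and 7.8% of all genes. That median ran from 0.04 without endpoint gland 1 to 0.24 without untreated gland 3 as each gland was left out, and the counts ran from 2 to 6 higher and from 1 to 4 lower, against 9.78% to 18.1% and 8.53% to 18.3% of all genes. The cell cycle inhibitor gene Cdkn1a had 29.4, 38.5 and 84.6 CPM untreated and 68.9, 109 and 135 CPM at the endpoint, with overlap (1.04 ± 0.74, edgeR adjusted p = 0.59). Gdf15, a stress cytokine gene, had 0.564, 0.614 and 0.388 CPM against 1.14, 1.70 and 4.17 CPM, without overlap (2.14 ± 0.68, edgeR adjusted p = 0.266). At 2 weeks, against the same untreated libraries, its log2 fold change was 4.57. Mdm2, the ligase that degrades p53, had 0.05 ± 0.30. The repair genes Brca1 and Brca2 had 1.28 ± 0.57 and 0.32 ± 0.28, and 6 of the 21 genes of their list were higher (28.6%) and 1 lower (4.76%) without overlap. The list's median was 0.29, or 0.26 without endpoint gland 1 and 0.15 without endpoint gland 2. Cyp1a1 and Cyp1b1, which encode enzymes that activate DMBA, and Ahrr, the repressor of their receptor, had 0.98 ± 1.11, 0.24 ± 0.65 and -0.32 ± 0.48. The values of Mdm2, Cyp1a1 and Cyp1b1 changed sign when a gland was left out, to -0.055 and -0.42 for Mdm2 and Cyp1a1 without endpoint gland 1 and to -0.061 and -0.78 for Mdm2 and Cyp1b1 without endpoint gland 2. Cyp1b1 was also at -0.014 without untreated gland 1. None of these passed the edgeR test.

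The medians of lymphocyte, muscle and brown fat markers turned negative without endpoint gland 1. The B cell median was 1.81 with all glands and -1.69 without endpoint gland 1, the T cell median 1.59 and -1.95, the brown adipocyte median 2.70 and -0.97, and the skeletal muscle median 0.28 and -3.55. Untreated gland 1 also had high scores, 2.47 for B cells, 1.65 for T cells and 3.64 for skeletal muscle, and without it these medians were 4.61, 3.36 and 2.44. The muscle median was -0.085 and -0.30 without untreated glands 2 and 3, and 0.85 and 0.73 without endpoint glands 2 and 3. The neutrophil median of 2.04 was carried by endpoint glands 1 and 2, with scores of 0.79 and 1.92 against -0.67 in endpoint gland 3 and -0.73 to -0.62 in untreated glands, and was 1.65 without endpoint gland 1. The calprotectin subunit gene S100a9 had 14.6, 51.2 and 0.758 CPM in the endpoint glands and 0.720 to 1.56 CPM in the untreated ones (log2 fold change 4.26 ± 1.56, edgeR adjusted p = 0.321). Nuclear genes of oxidative phosphorylation had scores of 1.28, -0.78 and 0.24 in endpoint glands 1, 2 and 3, and a median log2 fold change that went from 0.73 to 0.09 without gland 1.

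The same endpoint comparison in Cip2a-/- glands shares no library with the WT one. It gave 0 genes by edgeR, with 2268 genes under 0.05 before adjustment, and 277 by DESeq2. Without Cip2a-/- endpoint gland 1 edgeR called 9. In the test of the difference between the 2 genotypes edgeR called 0 genes, with 1553 genes under 0.05 before adjustment, and DESeq2 called 34. For Thbd the Cip2a-/- log2 fold change was -0.19 ± 0.25 and the difference, WT minus Cip2a-/-, was -1.56 ± 0.35 (edgeR adjusted p = 0.49). For Atp6v0e2 they were -0.16 ± 0.17 and -1.09 ± 0.25, and for Matn2 -0.57 ± 0.30 and -1.47 ± 0.43, at the same adjusted p. Untreated Cip2a-/- glands were already below untreated WT glands for Thbd, at 111, 106 and 121 CPM. Abi3bp stood lower at the endpoint in both genotypes, with 45.8, 33.0 and 60.3 CPM in untreated and 19.3, 18.1 and 21.7 CPM in endpoint Cip2a-/- glands (-1.23 ± 0.23), and Gm6936 had -2.31 ± 0.60. Untreated Cip2a-/- glands already had few reads of Gm6936, 11, 12 and 10, and the endpoint ones had 4, 2 and 1.

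For the lists, Cip2a-/- endpoint glands had medians of -0.78 for collagens, -0.36 for fibroblast markers, -0.71 for replication genes and -0.62 for mitosis genes, with a median over all genes of -0.04. All 3 endpoint values lay below the untreated ones for 1 collagen gene, 1 fibroblast marker, 4 replication genes and 0 mitosis genes, against 9.42% of all genes, and above them for 0, 1, 0 and 0, against 8.19%. Other medians were as high as in WT: 0.42 for ribosomal protein, 0.75 for immediate early, 1.69 for glucocorticoid and metallothionein and 2.33 for neutrophil genes. In these 4 lists 1 of 82, 2 of 17, 4 of 12 and 3 of 12 genes were higher without overlap. Mast cell and Myc list medians were -0.27 and 0.02, against -1.82 and 0.51 in WT. Cip2a-/- scores were centred on the 6 Cip2a-/- glands. Untreated Cip2a-/- gland 1 had a mitosis score of -1.45 and the other 2 had 1.25 and 1.32, so the untreated group spanned most of the range. The replication scores of these untreated glands were likewise -0.56, 0.74 and 0.84. The median difference between the genotypes, WT minus Cip2a-/-, was 2.18 over mitosis and 1.37 over replication genes, and 0 genes of either list passed the edgeR test of the difference. At an unadjusted p under 0.05, 16 of 30 mitosis and 24 of 30 replication genes had a positive difference, against 6.79% of all genes. So did 13 of 15 T cell, 10 of 13 B cell and 7 of 11 brown adipocyte genes, with median differences of 4.91, 5.64 and 4.20. The difference was thus not particular to genes of dividing cells. Of the 16 collagens and 15 fibroblast markers, 0 had a positive difference at that p.

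**Figure D4:**
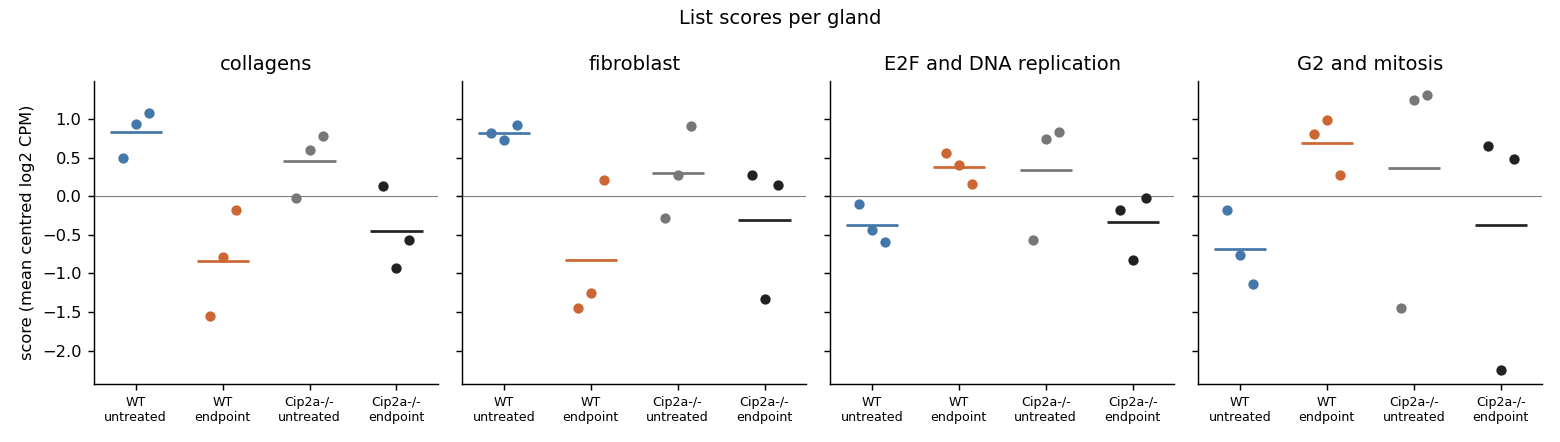
Scores (mean centred log2 CPM) of 4 lists in untreated and endpoint glands of both genotypes, with 1 point per gland and a bar at the group mean. Scores were centred separately on the 6 glands of each genotype, so levels cannot be compared between genotypes. WT endpoint and untreated scores do not overlap in any panel, while the untreated Cip2a-/- mitosis scores run from -1.45 to 1.32.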

How the data were processed

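RNA from 18 mammary gland samples was sequenced as polyA libraries with the TruSeq Stranded mRNA kit, per the labels' protocols. The submitters' processing notes name bcl2fastq 2.17, STAR 2.5.2b, Subread 1.5.1 and the build mm10. The deposited values are unnormalized counts of reads, with a row for each symbol and a column for each library, as whole numbers. Neither the gene annotation nor the strand and multi-mapping settings of the counting are stated in the labels or headers, so overlapping and near-identical genes are uncertain. Every column was matched to a labelled sample.

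From these counts, edgeR 4.0.16 in R 4.3.3 kept genes by filterByExpr (minimum count 10, minimum total 15), scaled by TMM and fitted quasi-likelihood models to all 18 libraries, with a coefficient for each of the 6 groups, so that all groups share the estimate of spread. P-values were adjusted by Benjamini-Hochberg over all 15482 genes, with calls made below 0.05. Log2 CPM used a prior count of 2. The alternatives were other scaling and filters, DESeq2 1.42.0, limma 3.58.1 voom with and without sample weights, fewer libraries, a replicate block and leaving out each library. Lists (51, of which 836 of 847 listed genes were matched) are described by counts and medians. The members, lists and comparisons were chosen with earlier results of these data known. Genes were named by a rule: Cip2a, up to 12 genes in each direction, called or with the smallest p, with a mean of at least 5 CPM and no overlap between groups, and the first 3 tested genes of a list. On simulated data, 200 genes among 15374 tested were changed. The fit for this comparison called 53 of 100 genes changed 4-fold and 11 of 100 changed 2-fold, with 3 unchanged genes called. Each simulated gene had the same spread in all groups, whereas the median SD was 0.491 in real WT endpoint and 0.223 in untreated glands. These counts therefore may not hold for the real libraries. Upstream sequences are from RefSeq (GRCm38.p6), using the first listed start of each gene.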

Additional observations from a re-analysis of the deposited data

How the results depend on the processing

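Other scaling, no filter, a mean of at least 5 CPM and limma voom gave 4 or 5 called genes, as against 5. A fit to the 6 libraries alone called 0, one to the 9 WT libraries 0, DESeq2 306 (108 higher, 198 lower) and voom with sample weights 17 (3 higher, 14 lower). With sample weights Thbd and Atp6v0e2 passed, but Abi3bp, Gm6936 and Matn2 did not (weighted voom adjusted p = 0.0794, 0.0888 and 0.0655). Matn2 did not pass voom without weights either (voom adjusted p = 0.0582). In the 2 fits that called 0, fewer libraries inform the spread. The fit to all 18 libraries also takes in groups with a smaller median SD, 0.187 to 0.415, than the 0.491 of WT endpoint glands. Its p-values and SE for this comparison may therefore be too small. Leaving out 1 library gave 0 to 46 called genes, 0 to 11 higher and 0 to 35 lower. With DESeq2, a check added after the data were seen, it gave 52 to 1160: 69 without untreated gland 2, 52 without untreated gland 3, 479 without endpoint gland 3 and 1160 without endpoint gland 2. For the Cip2a-/- endpoint DESeq2 called 277 genes and edgeR 0 to 9, with 9 only without Cip2a-/- endpoint gland 1. For the difference between genotypes DESeq2 called 34 and edgeR 0 to 1, with 1 only without WT endpoint gland 2. For WT glands at 2 weeks, where edgeR called 0, DESeq2 called 14. The cause of these differences was not tested.

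Whether the replicate numbers pair the glands cannot be decided with 3 glands in each group. Same-numbered deviations correlated at 0.66, 0.29 and 0.082. Untreated glands 1 and 2 correlated best with the endpoint gland of the same number, and untreated gland 3 with endpoint gland 2 (0.62). With a replicate block 20 genes were called, 1 higher and 19 lower, including all 5, and Fosb had a log2 fold change of -0.49.

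Of 71 genes named, 355 values under other scaling, filters, libraries or the block held 1 change of sign. The 426 values without a library held 11. None was in a called gene, where groups without overlap left little room for such a change. Without 1 library the log2 fold change ran from -1.26 to 1.26 for Fosb, from -0.0039 to 0.57 for Tsc22d3, from -0.061 to 0.21 for Mdm2, from -0.18 to 0.46 for Pecam1, from -0.65 to 0.0034 for Cdh5, from -0.42 to 3.03 for Cyp1a1, from -0.78 to 0.64 for Cyp1b1 and from -0.044 to 0.27 for Atp6v0e. The fibroblast median was -2.34 without endpoint gland 3. Depth was similar across libraries, and for genes with few reads, such as Gm6936, it limits the size of the change that can be stated.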
